A study of Homo sapiens with 4 samples.

Results

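Band 7p22.3 is the light Giemsa band at the tip of the short arm of chromosome 7, and 1088 of the 115384 ELF5 peaks called in T47D cells had their summit in its 2.8 Mb, the first 2800 kb of the chromosome on hg19. Members were chosen by summit position alone, with no filter on strength, and all 1088 enter the values given here. Within the band, summits no more than 12.5 kb from the next were joined into stretches. The stretch with the most peaks, the long cluster, ran from 841466 to 1798455 and held 460 peaks, and the rest of the band held 628. T47D is a human breast cancer cell line, labelled as luminal A epithelium, and was grown here in RPMI with serum and insulin and left untreated. From these cells there were 3 replicates of the ELF5 ChIP and 1 input sample. Each ChIP sample carries an antibody label, whereas the protocol shared by all samples lists antibodies to other factors only. The values analysed were those of 1 ELF5 peak list, with 1 fold and 1 p per peak and none per replicate. Its track line names 1-3, which leaves unclear whether replicates 1 to 3 or replicates 1 and 3 are meant. Positions of peaks are on hg19 and counted from 1.

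ELF5 belongs to the ETS family of transcription factors and is made in the luminal and alveolar cells of glands. It is known for its part in the differentiation of milk-secreting cells of the mammary gland. ETS factors recognise a short GGAA core through a winged-helix domain, and the bases beside the core set the preference of each subfamily. The ends of human chromosome arms are often rich in genes and in G and C bases.

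Peaks could not be tied to genes, since the gene table used here is on GRCh38.p14 and the peaks are on hg19. The table gives the order of genes from the tip of the short arm. Of 32 genes listed for the band from general knowledge, 32 were found on chromosome 7 in it, 1 of them, C7orf50, under its newer symbol CHLSN. Read inward, the list opens with FAM20C, a kinase of secreted proteins, PDGFA, a growth factor, and PRKAR1B, a regulatory subunit of protein kinase A. Further inward come SUN1, a nuclear envelope protein, GPER1, a G protein-coupled estrogen receptor, INTS1, a subunit of the Integrator complex, and MAFK, a small MAF factor. The list closes with MAD1L1 of the spindle checkpoint, LFNG, which glycosylates Notch receptors, and GNA12, a G protein subunit. Which of them lie in the long cluster was not analysed here.

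Promoter windows from RefSeq, 250 bases before to 50 after an annotated start on GRCh38.p14, show what the ETS site looks like near genes of this band. The table held 47 windows for 27 of the 32 genes, and several genes have more than 1 window. The core GGAA, read on both strands, was in 89.4% of these windows and in 95.5% of all 35116 windows. The longer ETS site CCGGAAGT, which contains the core and was also read on both strands, was in 4 of the 47, or 8.51%, against 4.14% of all windows. The intermediate stretch GGAAG ran the other way, in 59.6% of the 47 and in 71.9% of all windows. The median G and C content of the 47 was 71.3%, against 58.7% over all windows. The 4 windows belong to DNAAF5, INTS1, MRM2 and NUDT1, and those of MRM2 and NUDT1 overlap on opposite strands and share their sites. DNAAF5 is needed to assemble ciliary dynein arms, MRM2 methylates mitochondrial ribosomal RNA, and NUDT1 clears oxidised nucleotides. Of these 4, the windows of DNAAF5, INTS1 and MRM2 are printed here, each on its own gene's strand, with the longer site in capitals in whichever strand it reads. A match describes the letters only, and whether a peak lies there was not analysed here.
DNAAF5, plus strand: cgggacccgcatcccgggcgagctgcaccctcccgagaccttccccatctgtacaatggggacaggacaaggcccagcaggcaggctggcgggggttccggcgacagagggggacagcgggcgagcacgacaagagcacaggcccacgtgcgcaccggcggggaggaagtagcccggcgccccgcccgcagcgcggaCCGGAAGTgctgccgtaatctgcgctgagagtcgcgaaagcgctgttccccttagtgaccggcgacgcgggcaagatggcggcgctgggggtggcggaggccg
INTS1, minus strand: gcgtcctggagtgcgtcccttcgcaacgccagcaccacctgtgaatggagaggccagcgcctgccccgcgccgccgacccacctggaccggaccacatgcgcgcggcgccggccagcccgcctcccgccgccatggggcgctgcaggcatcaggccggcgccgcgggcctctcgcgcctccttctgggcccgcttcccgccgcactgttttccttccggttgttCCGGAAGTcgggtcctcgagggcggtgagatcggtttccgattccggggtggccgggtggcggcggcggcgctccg
MRM2, minus strand: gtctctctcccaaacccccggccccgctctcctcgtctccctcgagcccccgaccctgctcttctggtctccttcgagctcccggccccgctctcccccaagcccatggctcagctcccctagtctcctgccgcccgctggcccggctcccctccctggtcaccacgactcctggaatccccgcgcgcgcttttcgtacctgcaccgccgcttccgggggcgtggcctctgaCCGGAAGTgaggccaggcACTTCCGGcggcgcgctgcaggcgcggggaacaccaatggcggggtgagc
In DNAAF5 and INTS1 the site begins at positions -53 and -26, counted from the annotated start as position 0. In MRM2 it begins at position -18 and, on the other strand, at position 0. The first site thus lies before the start, and the second begins at it.

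The long cluster held 42.3% of the band's peaks in 34.2% of its length. Its density was 481 peaks per Mb, against 341 in the rest of the band, a ratio of 1.41. These densities follow from how the cluster was chosen and are given as a description. The rest of the band was itself dense, with 366 peaks per Mb between the tip and the cluster and 319.5 between the cluster and the inner edge of the band. Over the whole genome the list averaged 37.3 peaks per Mb. Peaks covered 14.8% of the cluster's bases, against 9.70% in the rest of the band and 1.24% of the genome.

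**Figure D1:**
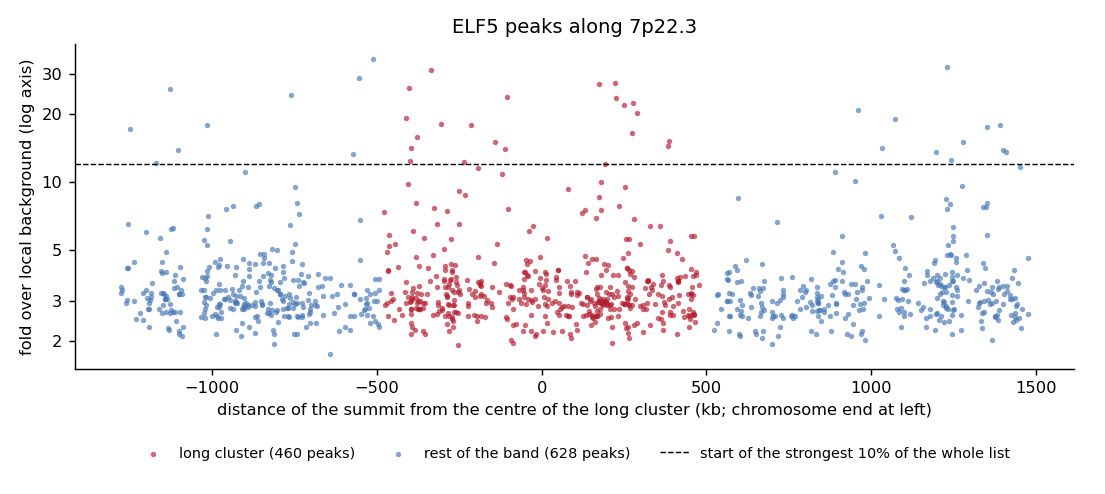
Each point is 1 ELF5 peak, placed by the distance of its summit from the centre of the long cluster (kb, the tip of the chromosome at left) and by its fold over local background (log axis), for the long cluster (460 peaks) and the rest of the band (628 peaks). Most points lie near a fold of 3 along the whole band, and 21 peaks in the cluster and 20 in the rest reach the dashed line at 11.99, where the strongest 10% of the whole list begins.

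Strong peaks, those among the highest 10% of folds in the whole list, begin at a fold of 11.99. The background rate is 10.0% by construction. In the cluster 21 of 460 peaks were strong, or 4.57% (Wilson 95% interval 3.01 to 6.88), against 20 of 628, or 3.18% (2.07 to 4.87), in the rest of the band. The 2 intervals overlapped, and both lay under the rate of the list. Per length, the cluster held 21.9 strong peaks per Mb (exact Poisson 95% interval 13.6 to 33.5), the rest of the band 10.9 (6.63 to 16.8) and the genome 3.73. The intervals cover counting error only and treat neighbouring peaks as independent, which they need not be. No test was made, since fold, p, width and position of a peak come from the same call that chose the members.

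The strong peaks of the cluster lay in 2 runs with an empty stretch between them. Between the summits at 907002 and 985436 there were 6, and between 1014828 and 1215880 another 6. No peak was strong in the next 279.5 kb, although 132 peaks lay there, at 472 per Mb, with a median fold of 3.06 and none above 9.35. From 1495383 to 1705707 came the remaining 9. The neighbours of the threshold were a peak from 1083231 to 1084662 with a fold of 12.3 just inside it, and one from 1513644 to 1514164 with a fold of 11.97 just outside it.

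The highest fold in the cluster was 31.1 (95% counting interval 25.8 to 37.0), at the peak from 984578 to 986006, where 122 fragments piled up over a background of 2.61. Next came a fold of 27.4 (23.3 to 32.0) at the peak from 1543683 to 1544449, and one of 27.2 (23.3 to 31.4) at the peak from 1494172 to 1495826. The peak at 1494172 had the largest pileup in the cluster, 178 fragments over a background of 5, and its smallest p. Pileups are printed before the scaling by 0.910 that enters the fold, and backgrounds are on the scale after it. Intervals of 6 of the other 9 among the 10 highest folds overlapped that of the first, so the order at the top was not resolved.

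The fourth fold, 25.9 (21.7 to 30.6), belonged to the widest peak of the cluster, 2220 bp from 915632 to 917851. The fifth, 23.8 (20.2 to 27.8), belonged to a narrow peak of 597 bp from 1215633 to 1216229. Width and fold therefore did not rank these peaks alike. The sixth, 23.5 (19.3 to 28.3), belonged to the peak from 1545110 to 1546853, whose summit was 2046 bp from that of the second.

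Ranks 7 to 10 had folds of 22.4, 21.8, 20.1 and 19.2. The peaks lay from 1597723 to 1599359, from 1570070 to 1571540, from 1609276 to 1610373 and from 906627 to 907742. The peak at 1609276 stood over a background of 7, the highest among these 10, and its 176 fragments gave it a p among the 3 smallest of the cluster. The next widest peaks after the first were 2185 bp from 1705388 to 1707572, with a fold of 15.2, and 2124 bp from 992486 to 994609, with a fold of 7.67. The peak at 992486 was not strong: its 100 fragments stood over a background of 11, a maximum that it shared with 1 other peak of the cluster.

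**Figure D2:**
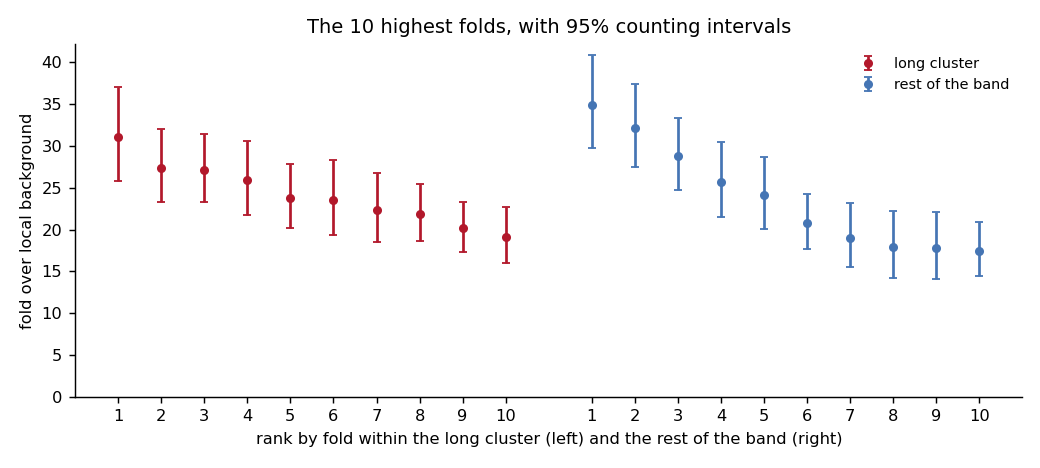
Points give the fold over local background of the 10 peaks ranked highest by fold in the long cluster (left) and in the rest of the band (right), with exact Poisson 95% intervals of the pileup at a fixed background. The first ranks, at 31.1 in the cluster and 34.9 in the rest, have overlapping intervals.

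The rest of the band held the highest fold of the whole band. It was 34.9 (29.7 to 40.9), at the peak from 807188 to 808433, which lies just outside the cluster on the side of the tip. The second, 32.2 (27.5 to 37.4), lay far inward, between 2550376 and 2551636, and had the smallest p of the band, with 168 fragments over a background of 3.78. The third, 28.8 (24.7 to 33.4), was again close to the cluster, from 766051 to 767025. The intervals of the highest fold in the cluster and in the rest overlapped.

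Toward the tip, the strongest peaks of the rest also included one of 2097 bp from 191815 to 193911, whose fold was 25.7 (21.5 to 30.4). Another, from 303921 to 304309, was only 389 bp wide, with a fold of 17.9. The widest peak of the band, 3761 bp from 557579 to 561339, had a fold of 24.1 (20.1 to 28.7) and ranked 13 by width in the whole list. The second widest, 3593 bp from 2726930 to 2730522, ranked 15 by width but had a lower fold, 13.5 (10.7 to 16.9). Both were wider than any peak of the cluster.

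Inward of the cluster, the other peaks among the 10 highest folds of the rest lay from 2281348 to 2282086, from 2394056 to 2395174, from 2710465 to 2711070 and from 2670837 to 2672096. Their folds were 20.8, 19.05, 17.8 and 17.5. The third widest peak of the rest, 2461 bp from 2561678 to 2564138, had a fold of 12.4. Around the threshold of strong peaks, the rest had a fold of 12.2 just inside, from 148966 to 150168, and 11.6 just outside, from 2772872 to 2773217.

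The longest stretch of the band without a strong peak ran inward across the edge of the cluster. Between the strong summits at 1705707 and 2281882 lay 576 kb with 179 peaks, 45 of them in the cluster, at 311 per Mb and a median fold of 3.002. Nearer the tip, 255 kb between 304048 and 558925 held 131 peaks, at 514 per Mb, with none above a fold of 11.1. Peak density in these 255 kb was above that of the long cluster as a whole, although none of the peaks between was strong. In the 576 kb stretch the density was below the 341 per Mb of the rest of the band.

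Counted in bins of 100 kb, the 8 bins wholly inside the cluster held 30 to 73 peaks with a median of 47.5, and the 18 bins wholly outside it 12 to 66 with a median of 32. The ranges overlapped. The fullest bin, from 1500001 to 1600000 in the cluster, had 73 peaks, of which 5 were strong. The bin from 900001 to 1000000 had fewer peaks, 51, but the most strong ones, 6. Outside the cluster, the bin from 2500001 to 2600000 came close to these, with 66 peaks and 4 strong. The median fold per bin ran from 2.97 to 3.30 inside the cluster and from 2.59 to 3.59 outside it, so the range inside lay within that outside.

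**Figure D3:**
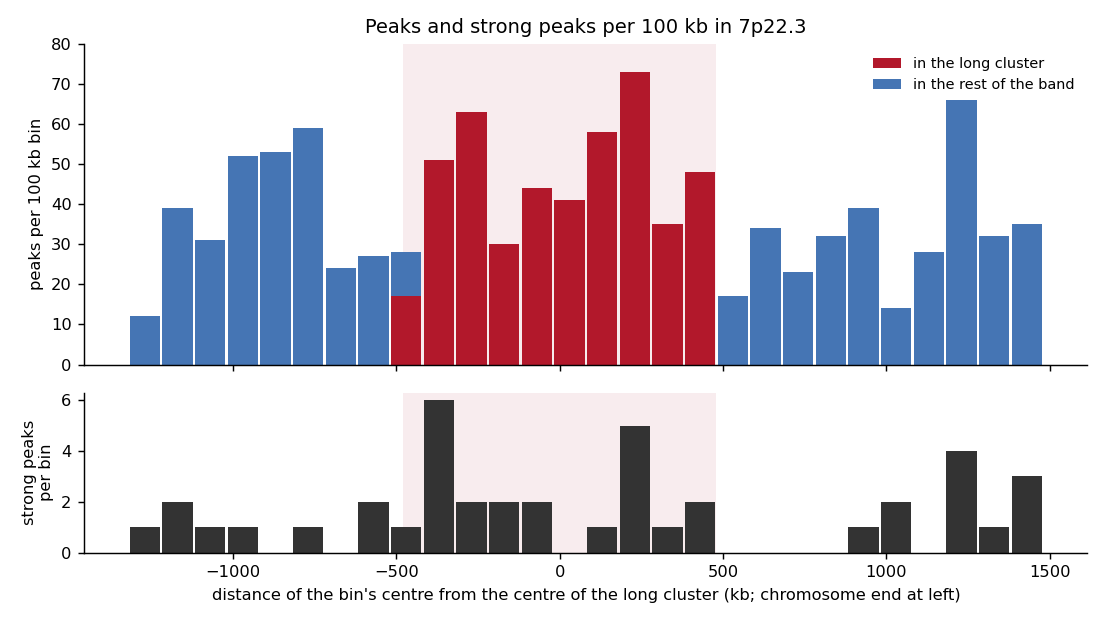
Bars give the number of peaks (upper panel) and of strong peaks (lower panel) in each 100 kb of the band, placed by the distance of the bin's centre from the centre of the long cluster, which is shaded. Bins inside the cluster hold 30 to 73 peaks, and the tallest outside it holds 66.

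The typical peak was weak in both parts of the band. The median fold was 3.15 in the cluster (interquartile range 2.75 to 3.88), 3.11 in the rest (2.72 to 3.74) and 3.66 in the whole list (2.98 to 5.50). Folds under 3 made up 41.5% of peaks in the cluster and 43.9% in the rest, while in the list they were 29158 of the 115384. The parts of the band differed more in the upper tail. The 90th percentile of fold was 6.38 in the cluster and 5.03 in the rest.

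A typical peak rested on few fragments. The median pileup was 15 in the cluster, 14.5 in the rest of the band and 16 in the list. The cluster peak closest to the median fold had 13 fragments over a background of 3.08, and the interval of its fold ran from 1.79 to 5.20. In the rest of the band such a peak had 12 fragments and an interval from 1.73 to 5.23. With intervals this wide, no order among typical peaks was detectable.

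Many members were weakly supported by the authors' own q. The q was 0.05 or more at 86 cluster peaks, or 18.7%, at 153 peaks of the rest, or 24.4%, and at 12.5% of the whole list. The largest q was 0.535 in the cluster and 0.509 in the rest. All 41 strong peaks had a q under 0.05, but fold and q come from the same call, so this is no separate support.

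The background recovered for the peaks was higher in the band than over the list. It was a whole number at 41.5% of peaks in the cluster, 35.4% in the rest and 39.8% in the list. The other values were fractions, so a background need not be a count directly under its peak. Its median was 3.78 fragments in the cluster, 3.51 in the rest of the band and 3.11 in the whole list. Of the cluster's peaks 75.9% lay above the median of the list, as did 72.6% in the rest. The lowest background in the list, 1.81 fragments, was 1 value shared by 8.55% of all peaks and by none of the 1088 members, whose lowest was 1.93. This was not particular to the band: 9q34.3 and 20q13.33 each had 1 such peak, and 17q25.3 and 7p22.2 had none. A higher background lowers the fold of a given pileup, and its part in the lower folds of the band was not tested. Ranked by pileup instead of fold, 7.17% of cluster peaks and 3.98% of peaks in the rest were among the highest 10% of the list, and both shares were under the rate of the list.

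The median background of strong peaks was 4.18 in the cluster, 3.94 in the rest of the band and 3.10 in the list. Their median pileups were 112, 90 and 92 fragments in the same order. Median folds of strong peaks were 17.97 in the cluster, 17.3 in the rest and 18.8 in the list. Within the rest the median was 17.9 on the side of the tip and 14.95 on the inner side. These peaks were chosen by a fold of at least 11.99, which bounds their medians from below.

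The median width was 221 bp in the cluster, 203.5 bp in the rest of the band and 215 bp in the list. Strong peaks were far wider, with medians of 1098 bp in the cluster and 1137 bp in the rest, against 818 bp in the list. Peaks of at least 1000 bp numbered 15 of 460 in the cluster, or 3.26%, and 19 of 628 in the rest, or 3.03%, against 5.05% of the list. Of these, 11 were strong in each part. Across peaks, the rank correlation of fold with width was 0.474 over the 460 cluster peaks, 0.428 over the 628 others of the band and 0.598 over the list. Fold and width come from the same call and share its background and depth.

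**Figure D4:**
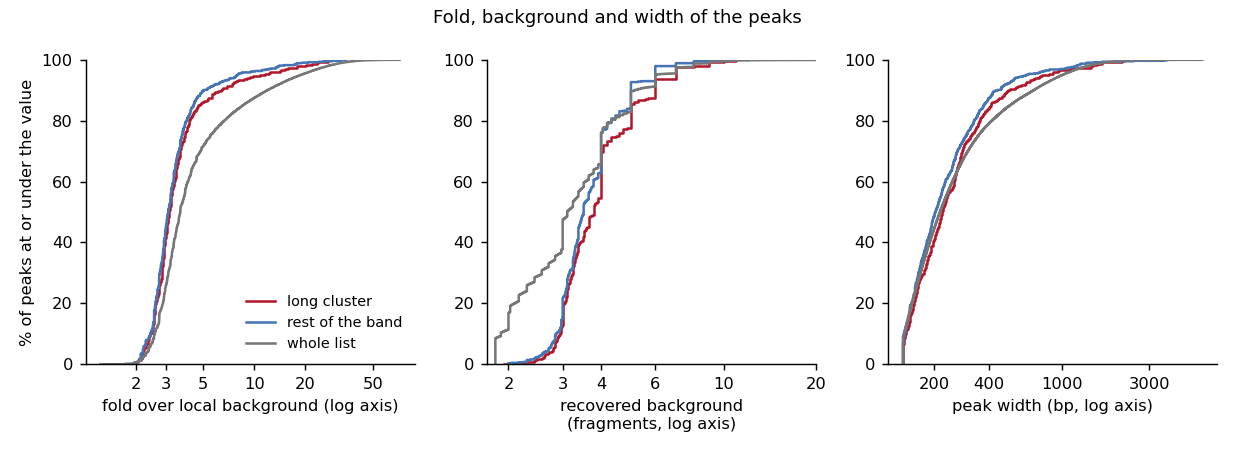
Curves give the percentage of peaks at or under each fold, recovered background and width (log axes) for the long cluster, the rest of the band and the whole list, with the background axis ending at 20 fragments. The band's curves lie left of the list for fold, with medians of 3.15 and 3.11 against 3.66, and right of it over low backgrounds.

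Neighbouring peaks were close in the cluster, which was defined by closeness. From summit to next summit the median was 1207 bp in the cluster and 1493 bp in the rest of the band, against 4186.5 bp in the list. The shortest was 162 bp in the cluster and 153 bp in the rest. Distances under 400 bp made up 10.9% of the distances in the cluster, 9.27% in the rest and 5.44% in the list. No 2 rows of the band overlapped, and neighbours this close may be parts of 1 enriched stretch.

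The share of peaks with a close neighbour was lower for strong peaks than for the others in both parts of the band, a difference that was not tested. Another summit lay within 1 kb of 7 of 21 strong peaks in the cluster, or 33.3%, and of 64.5% of its 439 other peaks. In the rest of the band it was 7 of 20, or 35.0%, against 57.1% of 608. Over the list the values were 31.5% and 39.2%. A wide peak keeps other summits at a distance, and these shares were not corrected for width. Among strong peaks of the cluster, the closest pairs were 1003 bp apart, at 921060 and 922063, and 1009 bp apart, at 1704698 and 1705707.

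The inner edge of the cluster was a wider gap than the outer one. On the side of the tip, 14.5 kb separated the first summit of the cluster, at 841735, from the nearest summit before it, at 827271. The first peak was well supported, with a fold of 7.40 (5.73 to 9.42) and a q of 5.29e-31, while the last before it had a fold of 2.29 (1.33 to 3.73) and a q of 0.179. On the inner side, 45.7 kb separated the last summit, at 1798365, from the next, at 1844112. The longest gap of the band was 53.1 kb, from 232128 to 285226. Assembly gaps were not read here, so an empty stretch may be one where no peak could be called. It does not show a lack of ELF5 binding. The widest gap inside the cluster was 12.2 kb, from 1340146 to 1352312, just under the joining distance.

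The ends of the band set its count only slightly. The first peak lay from 41109 to 41254 with a fold of 3.45, and the last from 2798124 to 2798319 with a fold of 2.62. The next peak inward, from 2799905 to 2800541, had its summit at 2800428 and was left out. It had a fold of 3.70. Counted by any overlap with the band instead of by summit, there were 1089 peaks.

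The length of the cluster depended on how peaks were joined. With a distance of 5 kb the 460 peaks fell into 56 pieces, and the most peak-rich stretch of the band held 77 peaks, from 1452201 to 1556698. With 20 kb it grew to 697 peaks from 285179 to 1798455, because the gaps that separate it from the 4 stretches nearest it on the side of the tip, and those from each other, were only 13.4 to 14.7 kb. With 12.5 kb but without peaks of q 0.05 or more, the cluster fell into 4 pieces, the largest with 150 peaks from 1393746 to 1718577. Peaks of q 0.05 or more thus bridged 3 gaps in the 957 kb. With only the highest 50% of folds it fell into 24 pieces, and the largest held 24 peaks in 94.6 kb, from 974234 to 1068846.

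**Figure D5:**
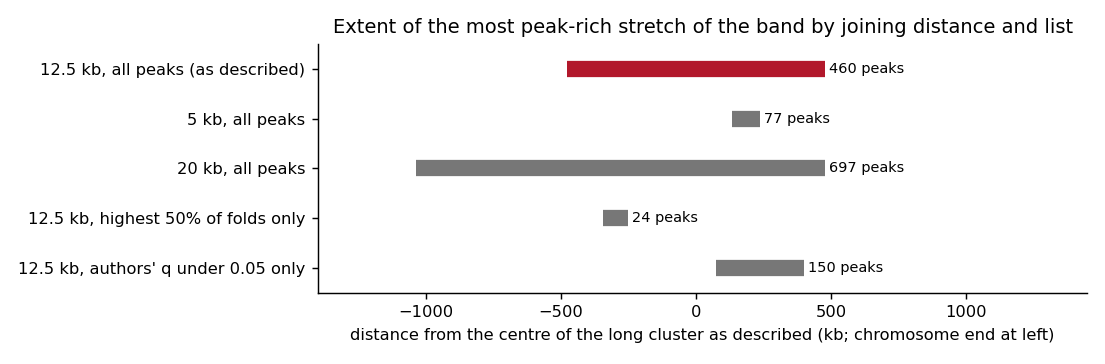
Bars show the extent of the most peak-rich stretch of the band for each joining distance and list, as distance from the centre of the long cluster (kb, the tip of the chromosome at left), with its number of peaks. It holds 460 peaks as described, 77 with 5 kb, 697 with 20 kb, 24 with the highest 50% of folds and 150 without peaks of q 0.05 or more.

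Joining by 12.5 kb over the whole list gave 33 stretches of at least 100 peaks, of which 2 lay in this band. The long cluster ranked first by peaks and by length. The next by peaks, on chromosome 16 from 85235799 to 85881627, held 392 peaks in 646 kb. Among the 10 stretches with the most peaks, the long cluster had the lowest density, 481 peaks per Mb, and the others ran from 488 to 674. The second stretch of this band, from 285179 to 661944, ranked 10 by peaks. It was denser than the cluster, with 194 peaks at 515 per Mb, but only 2 of them were strong. Among the 18 stretches of the band, the cluster was the longest but not the densest.

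Set beside other terminal bands, 7p22.3 was nearest 9q34.3 in density and nearest 20q13.33 in its share of strong peaks and median background. The density was 389 peaks per Mb in 7p22.3, 391 in 9q34.3, 309 in 17q25.3 and 287 in 20q13.33. The share of strong peaks was 3.77% (Wilson 95% interval 2.79 to 5.07) in 7p22.3, against 4.83% (3.85 to 6.04), 5.70% (4.73 to 6.86) and 3.84% (2.94 to 5.02) in the other bands in that order. The intervals of 7p22.3 overlapped those of all 3. Median folds were 3.13 in 7p22.3 and 3.15, 3.23 and 3.17 in the others, and median backgrounds were 3.59 against 3.78, 3.92 and 3.64 fragments. The neighbouring band 7p22.2, next inward on the same arm, held 98.8 peaks per Mb, of which 1 of 168 was strong. Its median background, 3.51, was close to that of 7p22.3, and its median fold was 3.21.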

How the data were processed

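ELF5 ChIP-seq of T47D cells gave 1 deposited peak list. Its build is hg19 per the submitters' processing notes and per the file headers. How reads were aligned, peaks called and thresholded, the input used and replicates pooled is not given in the sources consulted, and no column of the list belongs to a sample. Over the whole list the smallest −log10 p was 2.01 and the largest q was 0.583, so q was not held under 0.05. The authors' deposited fold of each peak is a ratio with no unit in the file. The p and q of each peak, deposited by the authors as −log10 values, were taken as they stand, and q was computed back from its −log10. The deposited score equals the whole part of 10 times −log10 p at all 1088 members and was not used further. These values are the authors' own and serve here only inside this list.

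From fold and p, the fragment pileup and the background under each peak were recovered under a Poisson tail, a pseudocount of 1 and whole pileups scaled by 0.910. All 115384 peaks came within 0.001 of their −log10 p, and 5 members had a second solution. The recovery was tested on data simulated from the same model. Such a test checks the inversion only, and not whether the deposited values were made in this way. These quantities are inferred, and total reads per sample are unknown here. An interval beside a fold is the exact Poisson 95% interval of its pileup at that background and covers counting error only. Neighbouring summits within 12.5 kb were joined.

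The members, lists and comparisons were chosen with earlier results of these data known. Peaks named are the 10 highest folds of each part, the 3 widest, the 3 of smallest p, the edges and the longest gaps. No test was made: there are no values per replicate, and the rule used the same call. Bands came from the table in circlize 0.4.16 (R 4.3.3). Motif shares at peaks and gene classes were planned but not run, for want of an hg19 sequence and annotation here. The tools were pandas 2.3.3, scipy 1.17.1, numpy 2.4.6 and, for figures, matplotlib 3.10.9, under Python 3.11.15.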

Additional observations from a re-analysis of the deposited data

How the results depend on the processing

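Of 27 alternative values, 17 moved and 10 did not. Some moves follow from the setting itself: keeping the highest folds raises a median fold, and another cut for strong peaks changes their share. In each subset of peaks tried, the density within the cluster's reported limits was above that of the rest of the band. The cluster was chosen for its peaks, so this is a description only. No density ratio was computed for joining over 5 kb or 20 kb. Ranking by pileup, and the density ratio in the highest 50% of folds, were chosen after seeing the data. A count or ratio was taken as moved beyond 1.5 times, and a median or share when it left the 95% interval of the reported value. With the highest 50% of folds of the list, the band held 323 peaks and the cluster, within its reported limits, 144 (joined again, its largest piece held 24); the median fold was 4.64 in the cluster and 4.43 in the rest, and the median width 320.5 bp and 318 bp. With q under 0.05 the median fold was 3.35 in both, and the median width 237 bp in the cluster and 218 bp in the rest. Joining over 5 kb and 20 kb gave 77 and 697 peaks in the longest cluster. The share of strong peaks was 2.17% in the cluster and 1.11% in the rest for the highest 5% of folds, 9.13% and 7.01% for the highest 20%, and 7.17% in the cluster for the highest 10% by pileup. Strong peaks gave a density ratio of 2.02, q under 0.05 gave 1.52 and the highest 50% of folds 1.55, against 1.41 for all peaks. Leaving out a replicate could not be tried. No paired analysis was possible because replicates have no values of their own here. With about 15 fragments under a typical peak, depth limits any order among such peaks.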
